A study of Mus musculus with 3 samples.

Results

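Ccnd1 and Myc are 2 of the 125 genes measured by a targeted single-cell panel in mouse bone marrow. Ccnd1 encodes cyclin D1, which activates cyclin-dependent kinases in the G1 phase of the cell cycle. Myc encodes a transcription factor that drives growth and biosynthesis. Both genes were taken by symbol and read in every cell of 3 libraries, and no measured value was used to choose them. In canonical Wnt signalling a Wnt protein binds a Frizzled receptor with its Lrp co-receptor, β-catenin escapes the Apc and Axin destruction complex, and β-catenin then acts with Lef and Tcf factors on target genes, among which Ccnd1 and Myc are the classical examples. Both genes also answer to many other growth signals, so their RNA is not a specific measure of the pathway.

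The 3 libraries came from C57/B6 wildtype mice. The E18.5 EC library held endothelial cells (ECs) sorted from fetal bone marrow at the E18.5 stage, the E18.5 BM cells library held lineage-depleted fetal marrow, and the Adult BM cells library held marrow of adults that was lineage-depleted too, several animals being pooled in each. There was 1 library per group, so no test between groups was possible, and stage cannot be told apart from library, preparation and depth. The 95% intervals given here are exact Poisson or binomial intervals that cover counting error only and not the variation between cells or animals.

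After removal of barcodes with fewer than 20 molecules or 5 targets there were 4038, 12844 and 7939 cells in the E18.5 EC, E18.5 BM and Adult BM libraries, with a median of 83, 97 and 242 molecules per cell. Between 38 and 113 barcodes were shared by each pair of libraries. The E18.5 EC library also held blood cells, since 23.7% of its cells carried at least 2 molecules of Ptprc, the gene for the pan-leucocyte antigen CD45. Such cells made up 71.7% of the E18.5 BM library and 16.7% of the Adult BM library. They are called Ptprc cells below.

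Each gene was read by 1 amplicon at the end of its reference transcript. On the GRCm38 build, the Ccnd1 transcript ENSMUST00000093962.4 lies at chr7:144929931-144939869 on the minus strand, with 5 exons, and the Myc transcript ENSMUST00000022971.7 at chr15:61985391-61990350 on the plus strand, with 3 exons. The files held 18955, 32206 and 7987 molecules of Ccnd1 in the kept cells of the E18.5 EC, E18.5 BM and Adult BM libraries. The same cells held 8251, 87629 and 23436 molecules of Myc. Levels are molecules of the gene per 10000 panel molecules, summed over cells. Molecules are DBEC-adjusted unless stated, that is, after both of the error corrections that the BD pipeline applies to molecular identifiers, whereas RSEC-adjusted molecules had the first correction alone and raw molecules had none. The amplicons differ in efficiency, so levels of Ccnd1 and Myc are not compared with each other. Because cells differed in depth, shares of cells with at least 1 molecule were taken after each cell was thinned to 50 molecules, with shallower cells left out.

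By level, the 2 genes led in different named cell classes. Clusters were built in each library without Ccnd1, Myc, the Wnt pathway and the cell cycle targets. Ccnd1 was highest in endothelial-like cells of all 3 libraries among the named classes, with 614 per 10000 (95% interval 605 to 623, 3031 cells) in the E18.5 EC library, 587 (564 to 612, 408 cells) in the E18.5 BM library and 134 (130 to 139, 1692 cells) in the Adult BM library. The intervals of both E18.5 libraries overlapped. In the E18.5 BM library 8114 Ptprc-rich and 688 other cells stayed unnamed, and 1 unnamed cluster of 456 cells, with Ptprc in 99.8% of them and a median of 48 molecules, had a higher Ccnd1 level of 787 (754 to 822). At 50 molecules, Ccnd1 was found in 79.9%, 82.7% and 41.3% of the endothelial-like cells of the E18.5 EC, E18.5 BM and Adult BM libraries.

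By level, Myc was highest among the named classes in haematopoietic-like cells, the blood lineage, and in both marrow libraries the shares gave the same leading class. In the E18.5 BM library the cluster led by Hlf and Mecom, transcription factors of haematopoietic stem cells, had 1340 Myc molecules per 10000 (1320 to 1361, 1272 cells), and 88.7% of its cells held Myc at 50 molecules. The haematopoietic-like cluster of the Adult BM library had 862 (849 to 876, 1723 cells) with a share of 70.0%. The haematopoietic-like class of the E18.5 EC library stood lower, at 206 (196 to 217, 432 cells), and an unnamed Ptprc-rich cluster of that library had 334. At 50 molecules its shares gave another order, with Myc in 28.1% of haematopoietic-like, 42.2% of endothelial-like and 53.5% of osteoclast-like cells.

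Against Ptprc cells of the same library, endothelial-like cells had 4.402 times the Ccnd1 level in the E18.5 EC library (4.21 to 4.61), 2.80 times in the E18.5 BM library (2.68 to 2.92) and 2.08 times in the Adult BM library (1.95 to 2.22). For Myc the same ratios were 0.875, 0.301 and 0.0837. By these levels endothelial-like cells were the higher of the 2 for Ccnd1 and the lower for Myc, but the Myc order did not hold on every scale. In the E18.5 EC library the Myc shares at 50 molecules, 42.2% and 37.9% for endothelial-like and Ptprc cells, went the other way, and in the Adult BM library the Myc ratio was 0.903 with RSEC-adjusted and 1.11 with raw molecules.

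**Figure D1:**
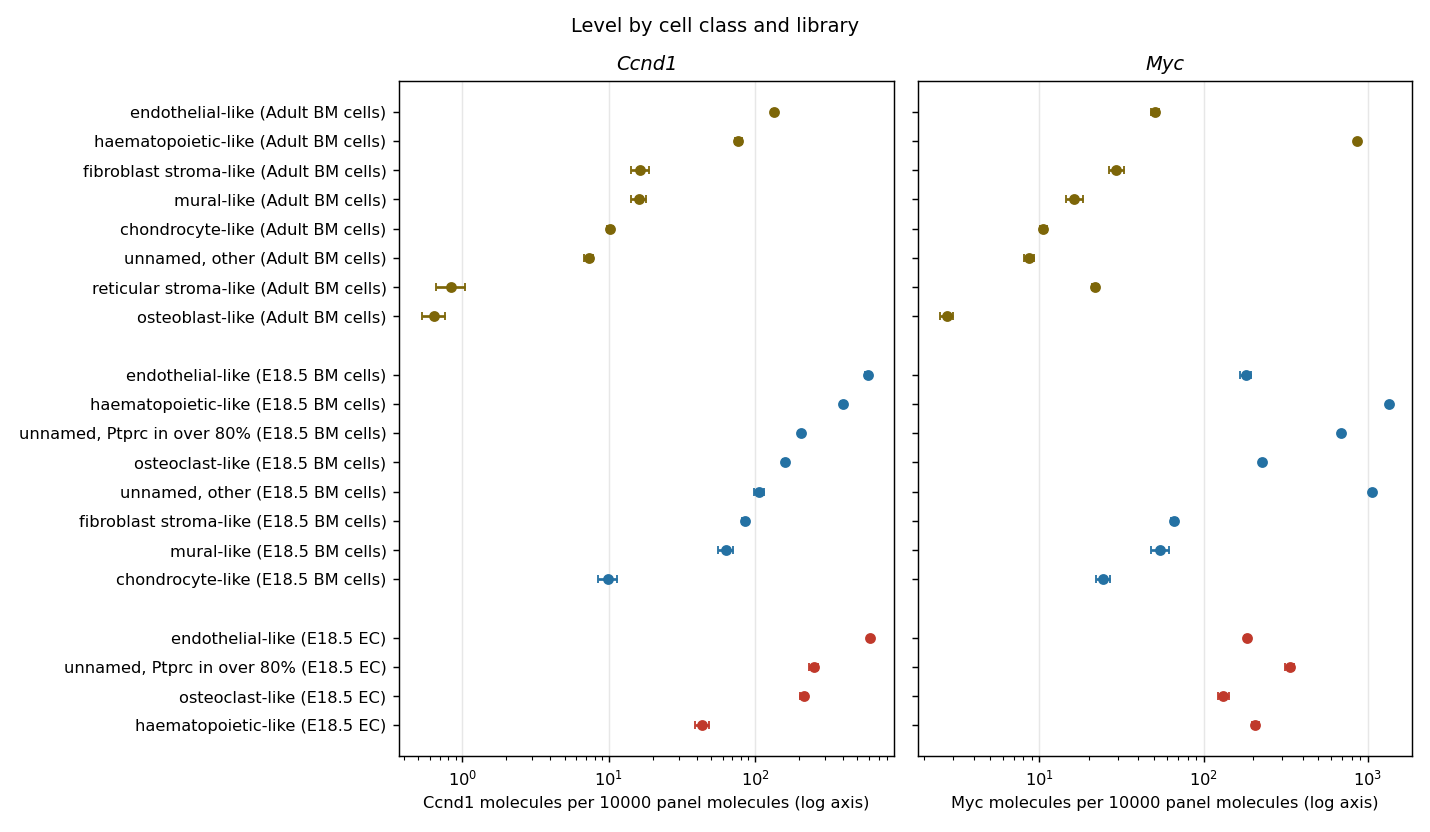
Ccnd1 (left) and Myc (right) molecules per 10000 panel molecules, on log axes, in each cell class of at least 50 cells, coloured by library (red E18.5 EC, blue E18.5 BM cells, brown Adult BM cells). Bars are 95% Poisson intervals. Endothelial-like cells top Ccnd1 among the named classes in each library, whereas haematopoietic-like cells top Myc by level.

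By level, skeletal and stromal classes carried little of either gene in the Adult BM library. Reticular stroma-like cells, marked by Cxcl12 and Lepr, had 0.836 Ccnd1 molecules per 10000 (0.665 to 1.04, 2346 cells), and osteoblast-like cells had 0.639 (0.528 to 0.766, 310 cells), with overlapping intervals. Their shares of cells with Ccnd1 were 0.384% and 0.323% at 50 molecules, and 1.88% and 17.4% before thinning, at median depths of 374.5 and 5605.5 molecules. Adult fibroblast stroma-like and mural-like cells, at 16.4 and 16.0, also overlapped, and chondrocyte-like cells had 10.2.

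For Ccnd1, fetal fibroblast stroma-like and mural-like cells stood higher than the adult classes of the same name. In the E18.5 BM library, fibroblast stroma-like cells had 85.2 Ccnd1 molecules per 10000 (82.0 to 88.5, 1235 cells) and mural-like cells, the smooth muscle and pericyte lineage, had 63.0 (56.0 to 70.6, 107 cells). Chondrocyte-like cells had 9.85 (8.40 to 11.5), an interval that held the adult value of 10.2, with Ccnd1 in 7.89% of cells at 50 molecules. Osteoclast-like cells, which resorb bone, had 160 Ccnd1 and 226 Myc molecules per 10000. Myc in the stromal classes was between 24.5 and 65.9 in the E18.5 BM library and between 2.74 and 29.5 in the Adult BM library.

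The adult order of Ccnd1 depended on the scale, because adult chondrocyte-like cells were very deep, with a median of 4012 molecules. Per cell they held 4.39 Ccnd1 molecules against 1.96 in endothelial-like cells and 0.836 in haematopoietic-like cells. For Myc, adult chondrocyte-like cells held 4.56 and osteoblast-like cells 1.60 molecules per cell. Adult endothelial-like cells held 0.745 and haematopoietic-like cells 9.37. In the other libraries, and for Myc in all 3, the leading named class was the same on both scales.

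Endothelial-like cells were not uniform. The cluster led by Gja4, the gene for the arterial gap junction protein connexin 37, and by Cxcl12 had 85.3 Ccnd1 molecules per 10000 in the E18.5 EC library (268 cells), whereas the other 3 clusters had 668, 708 and 728. Their shares at 50 molecules were 26.2% in the Gja4-led cluster and between 85.03% and 87.0% in the others. In the Adult BM library the Gja4-led cluster again stood low, with 56.7 (464 cells) against 216 in the Stab1-led cluster (893 cells) and 185 in the larger Vwf-led cluster (228 cells). A small Vwf and Srgn cluster of 73 cells had 11.4 and one of 34 cells, led by Stab1, had 50.8.

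Myc followed another order among the fetal endothelial-like clusters. It was highest in the cluster led by Stab1, a scavenger receptor of sinusoids, with 291 per 10000, and lower in the Vwf-led cluster, with 215. The cluster led by Ccn3 and Kitl, which had the highest Ccnd1, had 88.0 Myc molecules per 10000, and the Gja4-led cluster had 45.0. Mki67, a gene of cycling cells, was present at 50 molecules in 23.7%, 34.1%, 28.7% and 8.38% of the cells of the Stab1-led, Vwf-led, Ccn3-led and Gja4-led clusters.

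Ccnd1 and Myc were both higher in the fetal endothelial-like cells than in the adult ones. The E18.5 EC level was 4.58 times the adult level for Ccnd1 (4.41 to 4.75) and 3.61 times for Myc (3.39 to 3.84). The E18.5 BM library gave 4.38 and 3.54 against the same adult cells. A ratio of at least 1.5 or at most its inverse was reached by 77.2% of the 92 targets in the E18.5 EC comparison, in which Ccnd1 ranked 9 and Myc ranked 12 from the highest. Ratios of that size were thus common.

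The clusters with like leading genes gave ratios of unequal size. For Ccnd1 they were 3.10 in the Stab1-led, 3.83 in the Vwf-led and 1.505 in the Gja4-led clusters. For Myc they were 3.40, 7.11 and 2.02. The 4 cell cycle targets Mki67, Top2a, Cdk1 and Ccne1 moved in the same direction, with ratios between 10.7 and 13.5, and their part in the result was not tested. Mki67 was present in 28.8% of the E18.5 EC and 4.20% of the adult endothelial-like cells.

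**Figure D2:**
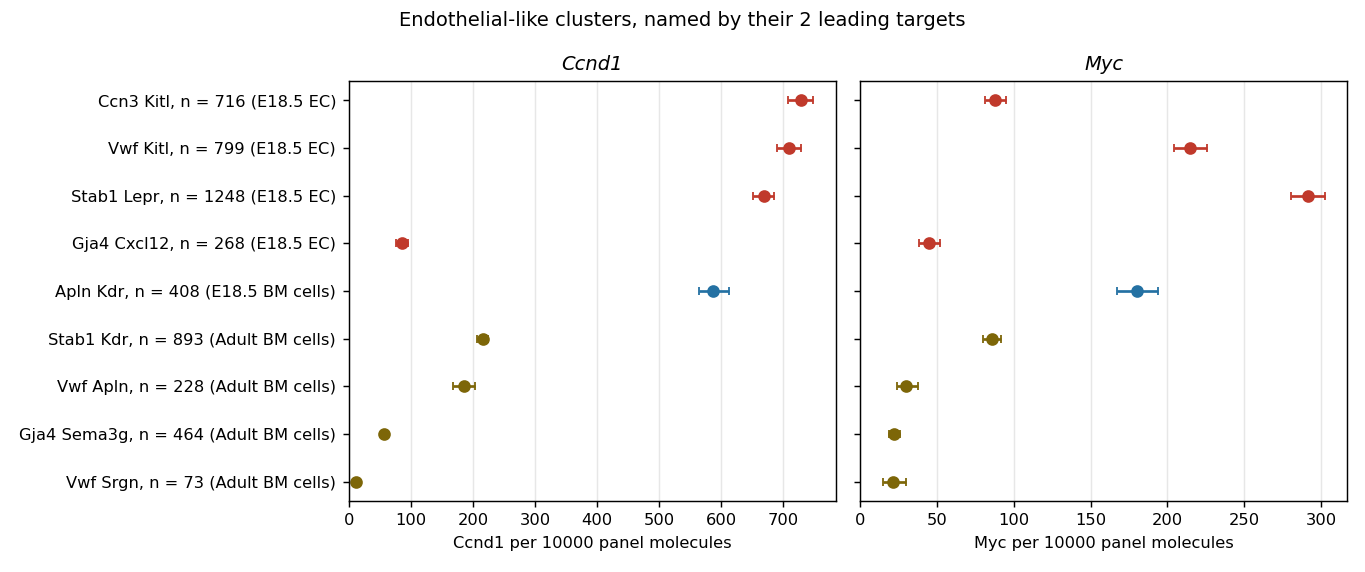
Ccnd1 (left) and Myc (right) molecules per 10000 panel molecules in each endothelial-like cluster of at least 50 cells, labelled by its 2 leading targets, number of cells and library. Bars are 95% Poisson intervals. The Gja4-led clusters lie far below the Stab1-led and larger Vwf-led clusters of the same library for Ccnd1.

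The remaining comparisons concern Ptprc cells, of which there were 958 in the E18.5 EC, 9209 in the E18.5 BM and 1324 in the Adult BM library, with median depths of 124, 93 and 97 molecules. Ccnd1 stood at 146 (140 to 153), 211 (208 to 214) and 66.1 (62.6 to 69.7) per 10000. Cells with Ccnd1 at 50 molecules made up 27.8%, 42.3% and 26.8%. Myc stood at 210.4 (203 to 218), 598 (594 to 602) and 603 (593 to 614) per 10000, with shares of 37.9%, 62.2% and 66.8%. By level, Myc was thus lowest in the Ptprc cells of the sorted library, and Ccnd1 was lowest in those of the adult library.

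Ccnd1 was 3.19 times higher in E18.5 BM than in Adult BM Ptprc cells (3.02 to 3.38), while Myc had a ratio of 0.991 (0.973 to 1.01). Among 103 targets, 73.8% passed the 1.5-fold limit in either direction, with Ccnd1 at rank 17 and Myc at rank 49. The direction of Ccnd1 was the same in Ptprc cells with Hlf (2.92), without Hlf (3.39), with Mki67 (2.53) and without Mki67 (4.74). For Myc these ratios were 1.12, 0.980, 0.961 and 0.716. With every cell weighted equally, the ratio over all Ptprc cells was 2.93 for Ccnd1 and 0.759 for Myc. It was 13.9 and 8.19 with RSEC-adjusted molecules for levels and gates, and 19.0 and 10.1 with raw molecules. The near-equal Myc thus belongs to DBEC-adjusted molecules summed over all Ptprc cells, with all targets in the denominator.

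Adult Ptprc cells carried molecules of genes listed as markers of other marrow cell classes. The 5 measured of 11 listed osteoblast markers summed to 1352 per 10000 in them and to 238 in E18.5 BM Ptprc cells, and Bglap3, an osteocalcin-family gene, was found in 96.8% of adult and 0.749% of E18.5 BM Ptprc cells. Reticular stroma markers, 5 of 12 measured in the adult and 4 in the fetal library, summed to 443 and 7.64, with Adipoq at 0 in the adult. Fibroblast stroma markers summed to 168 and 185, chondrocyte markers to 319 and 26.8, mural markers to 63.4 and 40.4, and endothelial markers, 10 of 26 measured, to 295 and 164. Pecam1 alone gave 222 and 97.9 of the endothelial sums. Osteoclast markers, 4 of 8 measured, went the other way, with 45.6 in the adult and 788 in the E18.5 BM Ptprc cells and Atp6v0d2 at 0 in the adult. These molecules enter the denominator of each level. With the 13 most abundant targets left out of it, the stage ratio of Ptprc cells was 2.07 for Ccnd1 and 0.642 for Myc. The source of these molecules and their part in the other results were not tested.

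Hlf is a transcription factor of haematopoietic stem cells, and Fzd9 is a Frizzled receptor for Wnt proteins. Hlf was found in 1480 of the E18.5 BM Ptprc cells (16.1%) and in 326 of the adult ones (24.6%). Fzd9 was found in 928 (10.1%) and 148 (11.2%). In the ratios that follow, the second gene was left out of the denominator. The levels by steps of a second gene and by combinations of genes kept all targets in the denominator.

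Taken over all clusters, Ccnd1 and Myc were both higher in E18.5 BM Ptprc cells with Hlf. Ccnd1 was at 317 per 10000 in cells with Hlf and 193 in cells without it, a ratio of 1.64 (1.59 to 1.69), and the shares at 50 molecules were 66.1% and 37.3%. Myc was at 1131 and 506, a ratio of 2.24 (2.20 to 2.27), with shares of 84.4% and 57.5%. Of 99 targets, 60.6% passed the 1.5-fold limit in this comparison, and the median ratio was 1.31. Ccnd1 ranked 28 and Myc ranked 16 from the highest, so neither stood at the top of the panel. Outside the Hlf-led cluster, 326 Ptprc cells held Hlf. Their Ccnd1 was at 165 per 10000 against 193 without Hlf, a ratio of 0.854 (0.801 to 0.909). The shares, 48.2% and 37.3%, went against that ratio, and standardised over 4 depth strata it was 1.02. No order of Ccnd1 by Hlf is thus read outside that cluster. The Myc ratio there was 1.47 (1.43 to 1.52). Osteoclast markers summed to 82.4 per 10000 in the cells with Hlf and 915.7 in those without, and their part in the result was not tested.

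With DBEC-adjusted molecules the adult cells gave the same direction. Ccnd1 was at 108 per 10000 in adult Ptprc cells with Hlf and 57.0 in those without, a ratio of 1.90 (1.69 to 2.14), with shares of 35.8% and 23.9%. Myc was at 1007 and 516, a ratio of 1.95 (1.88 to 2.03), with shares of 82.7% and 61.7%. The share of targets past the limit was 60.9% of 87. With cells weighted equally the adult ratios were 1.49 and 1.36. They turned with RSEC-adjusted molecules for levels and gates, to 0.731 for Ccnd1 and 0.630 for Myc, and with raw molecules, to 0.577 and 0.509. Osteoblast markers summed to 779.5 per 10000 with Hlf and 1481 without, and chondrocyte markers to 107 and 367, and their part in the result was not tested.

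The steps of Hlf were not even. In E18.5 BM Ptprc cells, Ccnd1 was at 193, 237, 412 and 353 per 10000 in cells with 0, 1, 2 to 3, and 4 or more Hlf molecules. Myc was at 506, 1081, 1279 and 951 in the same cells. In the adult cells Ccnd1 was at 57.0, 106, 104 and 118, with overlapping intervals among the 3 steps with Hlf. Adult Myc was at 516, 955, 1130 and 804.

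Fzd9 gave a like picture in the E18.5 BM library. Ccnd1 was at 320 per 10000 in Ptprc cells with Fzd9 and 200.1 in cells without, a ratio of 1.60 (1.54 to 1.66), with shares of 65.1% and 39.3%. Myc was at 1311 and 525, a ratio of 2.50 (2.45 to 2.55), with shares of 87.0% and 59.0%. In this comparison 71.7% of 99 targets passed the limit, and Myc ranked 10 and Ccnd1 ranked 29. Cells with at least 2 Fzd9 molecules had 367 Ccnd1 and 1512 Myc molecules per 10000, both above the cells with 1, at 301 and 1234. Osteoclast markers summed to 131 per 10000 with Fzd9 and 857 without, and their part was not tested.

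In adult Ptprc cells, Ccnd1 was at 84.9 per 10000 with Fzd9 and 62.6 without, a ratio of 1.36 (1.18 to 1.55). Myc was at 660.1 and 593, a ratio of 1.11 (1.06 to 1.17). The limit was passed by 54.0% of 87 targets, and neither member passed it. The shares at 50 molecules were further apart, at 44.4% and 24.5% for Ccnd1 and at 86.8% and 64.2% for Myc, and the ratios with cells weighted equally were 1.91 and 1.498. Chondrocyte markers summed to 1490.0 per 10000 in the 148 cells with Fzd9 and to 97.5 in the 1176 without, and their part was not tested. The ratios turned to 0.609 and 0.264 with RSEC-adjusted molecules for levels and gates and to 0.462 and 0.182 with raw molecules, and at a gate of 1 Ptprc molecule they were 1.01 and 0.802. Adult cells with at least 2 Fzd9 molecules, 38 in number, had 169 Ccnd1 and 1368 Myc molecules per 10000.

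The 376 E18.5 BM Ptprc cells with both Hlf and Fzd9 had 396 Ccnd1 molecules per 10000 (378 to 415). Cells with Hlf alone had 281 (272 to 290), cells with Fzd9 alone had 260.4 (248 to 273) and cells with neither had 188 (186 to 191). Myc was at 1288, 1045, 1302 and 450 in the same order. Ccnd1 was therefore highest with both genes, whereas for Myc the intervals of cells with both genes (1255 to 1322) and with Fzd9 alone (1274 to 1330) overlapped.

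Only 44 Ptprc cells of the E18.5 EC library held Hlf and 22 held Fzd9. Myc was higher in them, at 649 against 177 per 10000 by Hlf and at 1290 against 177 by Fzd9. Ccnd1 was at 169 against 145 by Hlf, a ratio of 1.17 whose interval of 0.995 to 1.36 included 1, and at 239 against 143 by Fzd9, a ratio of 1.67 (1.36 to 2.02).

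**Figure D3:**
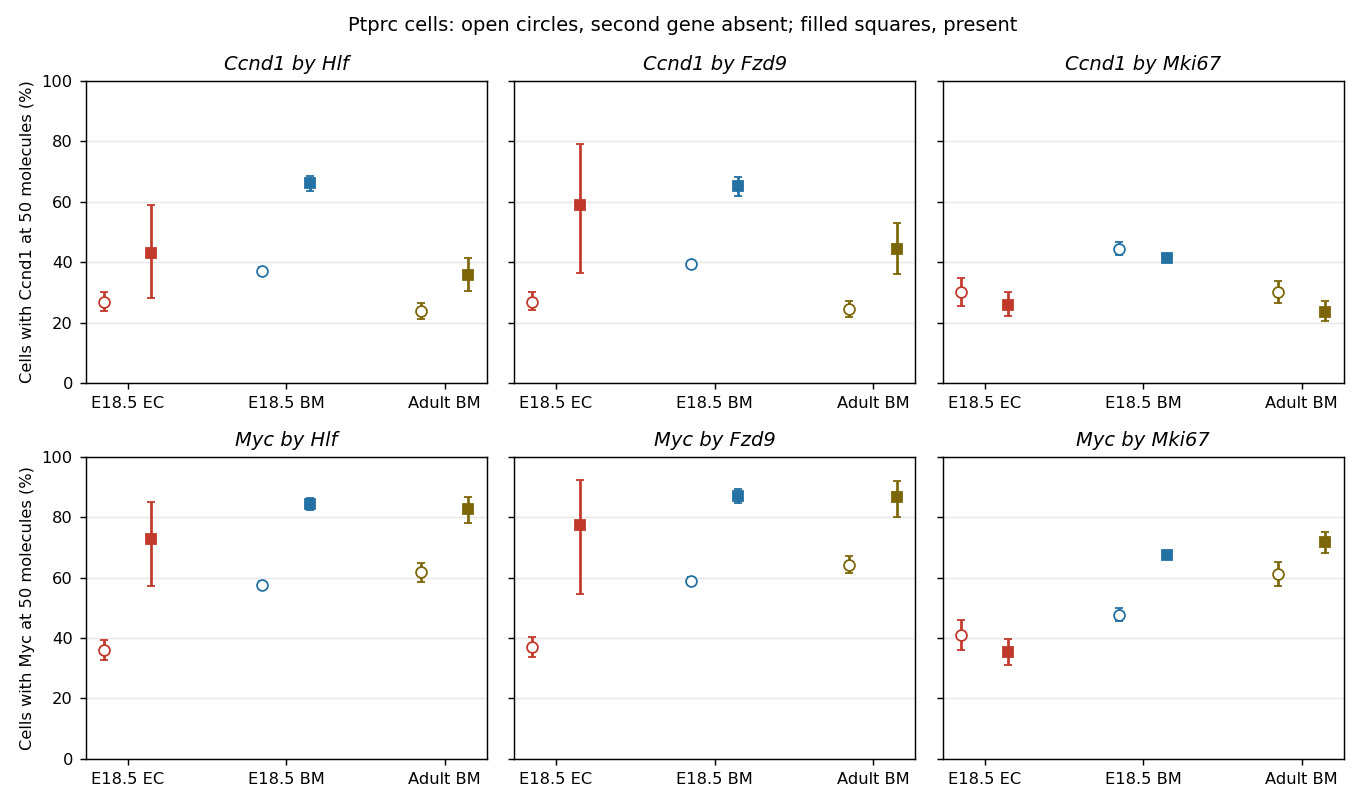
Percent of Ptprc cells with Ccnd1 (top) or Myc (bottom) after thinning to 50 molecules, by absence (open circles) or presence (filled squares) of Hlf, Fzd9 or Mki67 in each library. Bars are 95% binomial intervals. Shares were higher with Hlf and with Fzd9 in all 3 libraries, with overlapping intervals for Ccnd1 by Hlf in the E18.5 EC library, while the Ccnd1 shares by Mki67 overlapped in all 3.

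Mki67 marks cells in the cycle, and here the 2 genes parted in the E18.5 BM library. Mki67 was found in 64.5% of the E18.5 BM and 50.8% of the adult Ptprc cells. In E18.5 BM Ptprc cells, Ccnd1 was at 202 per 10000 with Mki67 and at 269.5 without, a ratio of 0.748 (0.729 to 0.769). Its shares were 41.4% and 44.6%, with intervals of 40.1% to 42.7% and 42.4% to 46.8% that overlapped slightly. Myc was at 729 and 350.2, a ratio of 2.08 (2.04 to 2.13), with shares of 67.5% and 47.7%. In this comparison 54.5% of 99 targets passed the limit, and Myc ranked 13 and Ccnd1 ranked 65.

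Ccnd1 was lowest at high Mki67. Ptprc cells of the E18.5 BM library with 0, 1 to 2, 3 to 9, and 10 or more Mki67 molecules had 269.5, 316, 209 and 118 Ccnd1 molecules per 10000. Their shares at 50 molecules were 44.6%, 56.4%, 45.5% and 29.2%. Myc was at 350.2, 769, 841 and 494, so it too was lower in the last step but above the cells without Mki67. The median depth of the 4 steps was 57, 81, 107 and 136 molecules, so depth rose with Mki67, and its part in these values was not tested. Mki67 and the other cell cycle targets stayed in the denominator of these levels, and their part was not tested either.

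By level, both genes peaked at 1 to 2 Mki67 molecules in the adult cells. In the E18.5 BM cells Ccnd1 peaked there too, but Myc peaked at 3 to 9. Adult Ccnd1 was at 56.9, 114, 78.1 and 51.4 per 10000 over the 4 steps, with shares of 30.1%, 32.4%, 26.5% and 14.1%. The intervals of the shares 30.1% and 32.4% overlapped. Adult Myc was at 489, 991, 738 and 546. Its shares at 1 to 2 and 3 to 9 molecules, 79.5% and 78.2%, had overlapping intervals too. Taken as present or absent, Mki67 gave adult ratios of 1.39 (1.25 to 1.55) for Ccnd1 and 1.54 (1.49 to 1.60) for Myc, with 65.5% of 87 targets past the limit. The Ccnd1 shares, 23.7% with Mki67 and 30.1% without, went against that ratio, and with cells weighted equally both ratios were near 1, at 0.9503 and 0.984. The Myc shares, 71.8% and 61.3%, kept the direction of its ratio. Both level ratios turned with RSEC-adjusted molecules for levels and gates, to 0.346 and 0.206, and with raw molecules, to 0.232 and 0.141. Without the most abundant targets in the denominator they were 1.01 and 1.12. Osteoblast markers summed to 898 per 10000 with Mki67 and 1815 without, and chondrocyte markers to 84.8 and 558. Their part in the result was not tested. No order is read from either adult ratio.

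**Figure D4:**
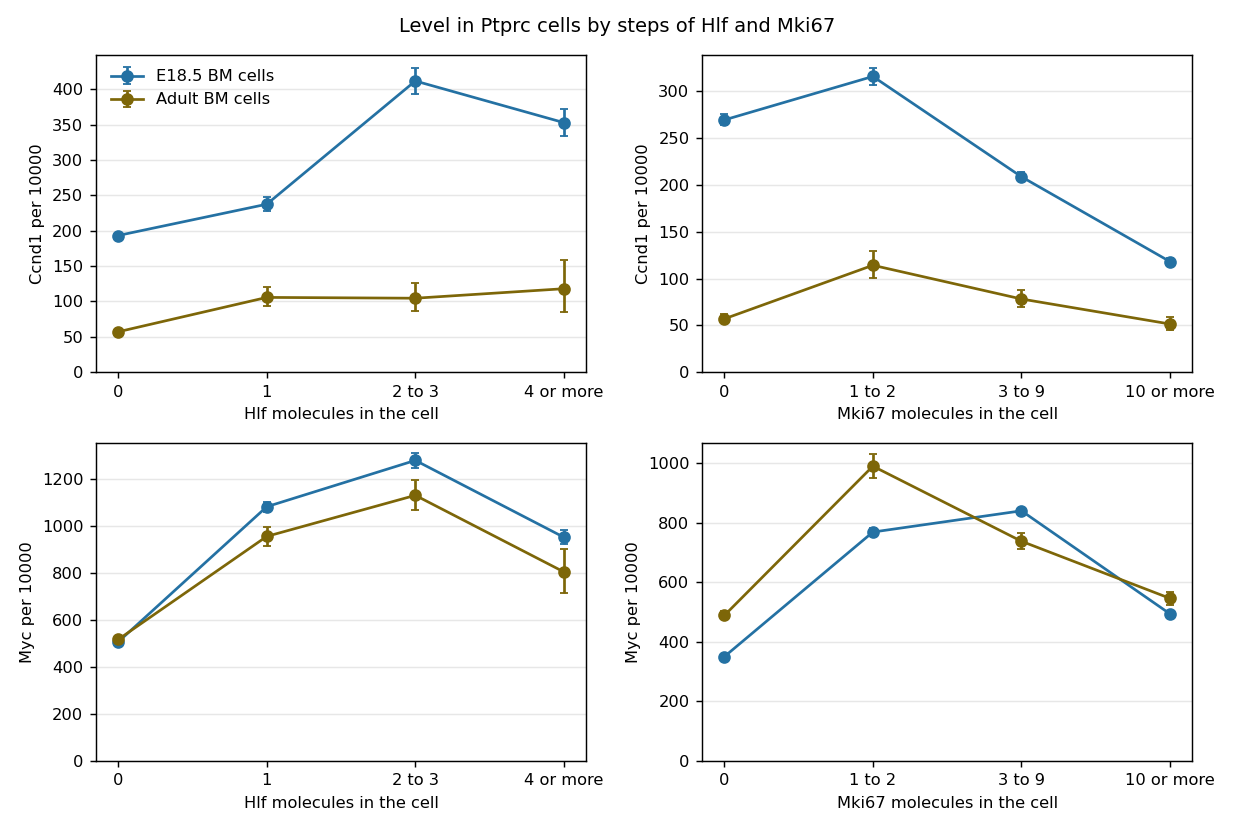
Ccnd1 (top) and Myc (bottom) molecules per 10000 panel molecules in Ptprc cells, by the number of Hlf (left) or Mki67 (right) molecules in the cell, for the E18.5 BM (blue) and Adult BM (brown) libraries. Bars are 95% Poisson intervals. Both genes peaked at 1 to 2 Mki67 molecules in the adult cells, and fetal Ccnd1 was at 118 with 10 or more.

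Clusters showed where high Mki67 and low Ccnd1 met. In 4 clusters of the E18.5 BM library led by Alpl and Sema3g or Car3, chosen after their values were seen, between 95.8% and 98.3% of cells held Mki67 at 50 molecules. Their Ccnd1 level was between 39.0 and 91.8 per 10000 and their Myc level between 428 and 741. With the Alpl-led clusters left out, the Ccnd1 ratio by Mki67 was 0.845 (0.823 to 0.868), the shares at 50 molecules, 49.5% and 44.6%, went against it, and the depth-standardised ratio was 1.08. The Myc ratio was then 2.22.

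The osteoclast-like cluster, with Mki67 in 39.0% of cells at 50 molecules, lowered the Ccnd1 level of the Ptprc cells without Mki67. Without that cluster Ccnd1 was at 205 per 10000 in Ptprc cells with Mki67 and 358 without, a ratio of 0.572 (0.556 to 0.589). Myc was at 829.7 and 453, a ratio of 1.83.

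**Figure D5:**
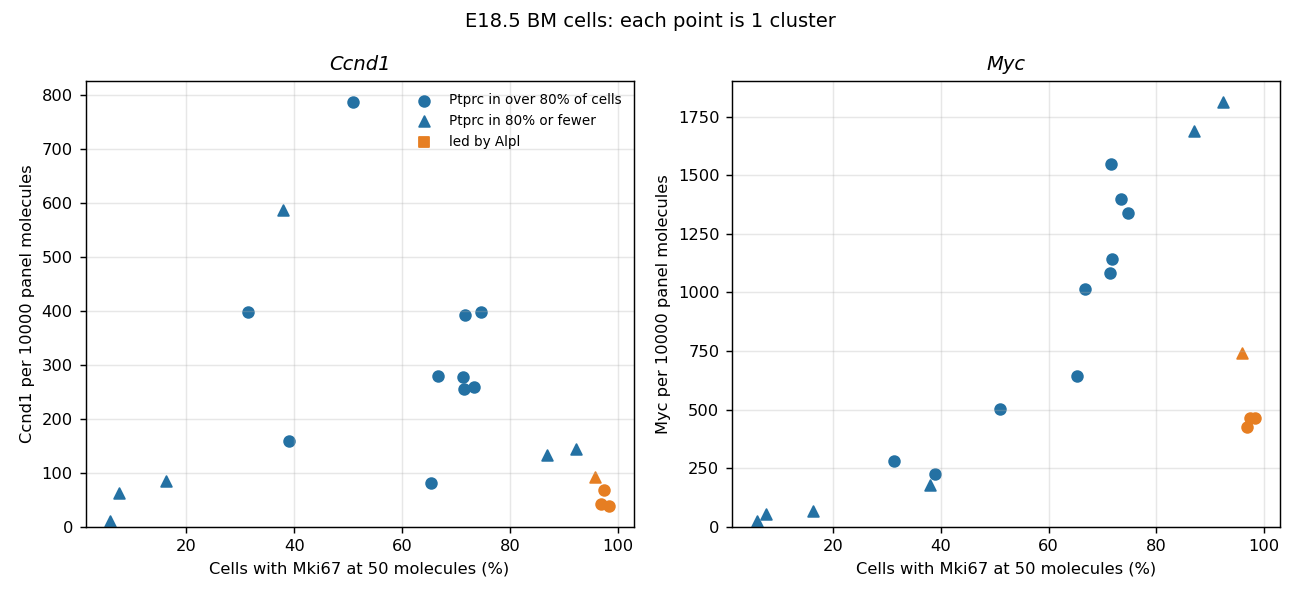
Ccnd1 (left) and Myc (right) molecules per 10000 panel molecules against the percent of cells with Mki67 after thinning to 50 molecules, for the clusters of the E18.5 BM library with at least 50 cells. Each point is 1 cluster, triangles mark clusters with Ptprc in 80% of cells or fewer, and orange marks those led by Alpl. The orange clusters combine the highest Mki67 shares with Ccnd1 below 100 per 10000.

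Within the Hlf-led cluster of the E18.5 BM library, 73.7% of cells held Mki67. Ccnd1 was at 377 per 10000 in these and 627 in the 334 cells without, a ratio of 0.601 (0.563 to 0.642), with shares of 69.8% and 86.5%. Myc was at 1445 and 1233, a ratio of 1.17, and its shares, 88.8% and 88.1%, had overlapping intervals. The median depth was 102 molecules with Mki67 and 54.5 without. Standardised over 4 depth strata the Myc ratio was 0.772, so no order of Myc is read here, and the Ccnd1 ratio was 0.751. The cell cycle targets take up part of the denominator in cells with Mki67, and with all 4 left out the Ccnd1 ratio was 0.733.

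Over all E18.5 BM Ptprc cells, those with Hlf and without Mki67 had the highest Ccnd1 of the 4 combinations, at 537 per 10000 (507 to 568, 338 cells). Cells with both were at 277, cells with neither at 248 and cells with Mki67 alone at 171. For Myc the values were 1006, 1122, 297 and 591. In the adult library Ccnd1 was at 119, 93.2, 42.1 and 71.3 in the same order, and Myc at 1007, 969, 366 and 661. By these levels, Hlf cells were the higher for Myc with and without Mki67 in both libraries. With adult cells weighted equally, Myc was at 897 with Hlf and 774 without among cells with Mki67. Among adult cells without Mki67 it was at 1086 and 745. The adult Myc ratio by Hlf over all Ptprc cells turned with RSEC-adjusted and raw molecules, to 0.630 and 0.509.

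The share of cells in cycle among Hlf cells differed by library. At 50 molecules, Mki67 was found in 74.4% of E18.5 BM Ptprc cells with Hlf (71.9% to 76.7%) and 61.4% of those without. In the adult library the shares were 34.2% (28.9% to 39.8%) and 48.1%.

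The other 3 cell cycle targets did not all give the Mki67 pattern for Ccnd1. Top2a and Cdk1 act in DNA replication and mitosis, and Ccne1 encodes cyclin E1 of the G1 to S transition. In E18.5 BM Ptprc cells the Ccnd1 ratio was 1.01 by Top2a (0.983 to 1.04), 0.902 by Cdk1 and 1.08 by Ccne1, and the Myc ratio was 2.82, 2.24 and 2.04. The Ccnd1 shares at 50 molecules were higher with each of the 3, at 43.4% against 38.7% by Top2a and 43.7% against 38.2% by Cdk1, so no order is read from the Cdk1 ratio. In adult Ptprc cells the Ccnd1 ratios were 2.92, 1.94 and 2.09, with shares in the same direction, and the Myc ratios were 2.26, 1.75 and 1.99.

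In endothelial-like cells, Ccnd1 by Mki67 had a ratio of 0.904 (0.874 to 0.934) in the E18.5 EC, 0.788 (0.725 to 0.857) in the E18.5 BM and 1.41 (1.23 to 1.61) in the Adult BM library. Only 71 adult endothelial-like cells held Mki67. The Ccnd1 shares at 50 molecules were a little higher with Mki67 in all 3 libraries, with overlapping intervals, so no order is read from the fetal ratios. Myc had ratios of 1.05 (0.994 to 1.12), 2.30 and 4.03, so a higher Myc level with Mki67 was seen in the E18.5 BM and adult endothelial-like cells. The Myc shares in the E18.5 BM library, 49.7% with Mki67 and 36.0% without, had overlapping intervals. In the adult library they were 33.3% and 14.9%. Of the 225 Myc molecules in adult cells with Mki67, 52 lay in 9 cells of the Gja4-led cluster.

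Ccnd1 and Myc were often found together. Among Ptprc cells thinned to 50 molecules, Myc was found in 76.0% of E18.5 BM cells with Ccnd1 (74.5% to 77.5%) and 52.0% of those without. The shares were 88.9% and 58.7% in the adult library and 54.0% and 31.7% in the E18.5 EC library. Both genes were present in 32.1%, 23.8% and 15.02% of the E18.5 BM, adult and E18.5 EC Ptprc cells. In the adult cells Myc without Ccnd1 was the most common state, at 43.0%, whereas Ccnd1 without Myc was seen in 2.98%.

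Molecules were unevenly spread over cells. In E18.5 BM Ptprc cells the median was 1 Ccnd1 and 2 Myc molecules, the highest counts were 81 and 128, and the richest 10% of cells held 49.6% and 51.0% of the molecules. In E18.5 EC endothelial-like cells the median was 4 Ccnd1 molecules, 14.1% of cells had none, and the richest 10% held 35.1%. Ccnd1 was therefore more evenly held in fetal endothelial-like cells than in fetal Ptprc cells.

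Other Wnt pathway genes were taken from a list of 38, of which 17 were on the panel. Of the signal chain, Apc and Axin1 of the destruction complex and the Dishevelled genes Dvl1 and Dvl2 were measured. In E18.5 BM Ptprc cells with Hlf, 3 of these 4 were at least 1.5 times higher and none was lower, with ratios of 1.62 for Apc, 1.54 for Axin1, 1.63 for Dvl2 and 1.49 for Dvl1, and a median of 1.58. Over all targets 35 of 99 were higher by that limit and the median was 1.31. In adult Ptprc cells with Hlf, 3 of 4 were again higher, with a median of 1.67, against 31 of 87 and a median of 1.15 over all targets.

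Of the Frizzled receptors, 6 of 8 passed the limit upwards in E18.5 BM Ptprc cells with Hlf, with a median of 1.98. Over all targets 35 of 99 did so. Fzd9 itself had a ratio of 3.80, Fzd3 of 3.77 and Fzd6 of 1.78. The other 3 rest on few molecules, with 12 and 43 for Fzd2, whose ratio interval of 0.757 to 3.04 included 1, 12 and 31 for Fzd8, and 16 and 30 for Fzd4. In the adult cells 4 of 5 passed, against 31 of 87 targets, with Fzd3 at 6.03 on 35 molecules in all, Fzd9 at 3.04 and Fzd6 at 3.03.

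Lef1, the β-catenin partner, stood opposite to Ccnd1 and Myc by Hlf. It was at 0.173 times the level of cells without Hlf in E18.5 BM Ptprc cells, on 318 and 10362 molecules, and at 0.0288 times in the adult ones, on 1 and 157 molecules (counting interval 0.00072 to 0.163). By Fzd9 its ratios were 0.655 and 0.247. By Mki67 they were 5.07 and 39.9. Lgr5, a Wnt target and R-spondin receptor, had ratios of 0.560 by Hlf (0.272 to 1.04) and 4.28 by Mki67 (2.24 to 9.16) in the E18.5 BM library.

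Across the 41 clusters of at least 50 cells in the 3 libraries, the targets whose level moved most like Ccnd1 were Apc and Ccny, with Pearson r of 0.854 and 0.820 on log2 of the level plus 1. Those most like Myc were Cdc73, Dvl2 and Axin1, with 0.973, 0.962 and 0.962. Ccnd1 and Myc correlated with each other at 0.693, and with Mki67 at 0.677 and 0.932. Clusters of 1 library share its depth, and the level of every target falls where a few abundant targets fill a cluster's molecules, so these values are descriptions with no test.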

How the data were processed

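Single cells of 3 mouse bone marrow libraries were captured on the BD Rhapsody system and amplified with a targeted panel. Per the file headers, the authors made the deposited counts with the BD Targeted Rhapsody Analysis Pipeline 1.8, which maps reads to the amplicons and collapses unique molecular identifiers. The deposited molecule counts are given per cell and target as raw, RSEC-adjusted (identifier errors merged) and DBEC-adjusted (identifiers with few reads removed) molecules, and no normalization was applied. DBEC-adjusted counts were used. They held 21.2%, 41.6% and 35.9% of the raw molecules of the E18.5 EC, E18.5 BM and Adult BM libraries, so that the filter was strictest in the first. The study's gating of the E18.5 EC library is described as CD31 alone or with endomucin, and doublets were not called here, so cells with markers of several classes remain.

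Barcodes below 20 molecules or 5 targets were dropped. Levels are sums over cells per 10000 panel molecules with exact Poisson intervals, ratios carry exact conditional binomial intervals, and shares carry exact binomial (Clopper-Pearson) intervals, all at 95%. With 1 library per group no test was run. Cells were thinned once to 50 molecules (seed 1), which left out 20.5%, 17.6% and 2.44% of cells. Ratios standardised over 4 depth strata and means with each cell weighted equally were taken beside the sums. Each library was clustered by Leiden community detection (igraph 0.11.9, 11 principal components, 20 neighbours, resolution 0.5). A cluster was named from at least 3 raised markers, 2 of them among its top 10 targets, and names ending in -like left 7.68%, 68.5% and 10.2% of cells unnamed. The tie-break between class names and the demand for Ptprc in 80% of osteoclast-like cells were set after the clusters were seen. The share of targets past 1.5-fold was taken over those with at least 20 molecules. Genes were named as the 2 members, the genes that define the comparisons, the cell cycle targets, a Wnt pathway list and the 3 targets most like each member, of which 1 is not reported here. The ratio functions were tested on simulated data. The members and lists were chosen with earlier results of these data known. Analyses used Python 3.11.15, scipy 1.17.1 and scikit-learn 1.9.0.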

Additional observations from a re-analysis of the deposited data

Results flagged for a closer look

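Ccnd1 by Mki67 in Ptprc cells went in opposite directions in the marrow libraries, with a ratio of 0.748 in the fetal and 1.39 in the adult library. The difference was not tested, since there was 1 library per stage. In the adult library the ratio was 0.9503 with cells weighted equally and 0.786 as a ratio of shares at 50 molecules.

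Ccnd1 by Mki67 in endothelial-like cells had ratios on both sides of 1, with 0.904 in the E18.5 EC, 0.788 in the E18.5 BM and 1.41 in the Adult BM library. This difference was not tested either, and the adult value rests on 71 cells with Mki67. The shares at 50 molecules were higher with Mki67 in each library, at 82.2% against 78.9%, 85.3% against 80.6% and 50.7% against 40.9%, and the E18.5 EC ratio was 1.02 without the cell cycle targets in the denominator, so no opposite direction is read from the levels.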

How the results depend on the processing

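Of 278 alternative values for 34 results, 55 stayed within the counting interval, 206 moved beyond it and 17 reversed, and all reversals concern the Adult BM library. A ratio could count as reversed only where its main interval left out 1. The Myc stage ratio of Ptprc cells, whose interval held 1, could therefore not, though its alternatives ran from 0.642 to 10.1. The E18.5 BM ratios by Hlf and Fzd9 and of Myc by Mki67 stayed above 1 in every alternative listed here. The E18.5 BM ratio of Ccnd1 by Mki67 stayed below 1 in each of them. Both stage ratios of Ccnd1 and the endothelial stage ratio of Myc also stayed above 1. Leaving out the Hlf-led cluster was not among these alternatives, and the E18.5 BM ratio of Ccnd1 by Hlf was then 0.854. Ratios by Hlf, Fzd9 and Mki67 in the E18.5 EC library were not among the 34 results, and some crossed 1. With cells weighted equally, Ccnd1 by Mki67 went from 0.739 to 1.07 there and Ccnd1 by Hlf from 1.17 to 0.969. Myc by Mki67 went from 1.37 to 0.862 as a ratio of shares. The cause of the adult reversals was not tested, but the Ptprc gate took in 2085 adult cells by RSEC-adjusted and 2145 by raw molecules against 1324. Only 11 and 38 adult Ptprc cells lacked endothelial or stromal, and stromal, markers, so adult ratios were not run without such cells. The equal weighting of cells, the denominator without cell cycle targets, the RSEC-adjusted levels with DBEC gates and the gate on stromal markers alone were chosen after seeing the data. Levels below are per 10000 in E18.5 EC, E18.5 BM and Adult BM cells in that order, and ratios of Ccnd1 precede those of Myc. Fetal ratios by Hlf, Fzd9 and Mki67 are those of the E18.5 BM library.

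With RSEC-adjusted molecules for levels and gates, the levels of Ptprc cells were 289.7, 197 and 14.1 for Ccnd1, and 242, 566 and 69.2 for Myc. By Hlf, Fzd9 and Mki67 the ratios were 1.13, 1.25 and 0.738 for fetal Ccnd1, 0.731, 0.609 and 0.346 for adult Ccnd1, and 1.51, 1.78 and 1.72 for fetal Myc, 0.63, 0.264 and 0.206 for adult Myc. Between stages Ptprc cells had ratios of 13.9 and 8.19, and the endothelial stage ratios were 5.43 and 3.54. Endothelial-like over Ptprc cells gave ratios of 2.88, 2.66 and 7.96 for Ccnd1, and 0.899, 0.438 and 0.903 for Myc. With raw molecules, the levels of Ptprc cells were 307, 219 and 11.5 for Ccnd1, and 287, 614 and 60.6 for Myc. The ratios by Hlf, Fzd9 and Mki67 were 1.13, 1.23 and 0.709 for fetal Ccnd1, 0.577, 0.462 and 0.232 for adult Ccnd1, and 1.53, 1.81 and 1.79 for fetal Myc, 0.509, 0.182 and 0.141 for adult Myc. The stage ratios of Ptprc cells were 19.0 and 10.1, and the endothelial stage ratios were 5.26 and 3.82. The endothelial-like to Ptprc ratios were 3.74, 2.67 and 12.3 for Ccnd1, and 0.879, 0.377 and 1.11 for Myc. With RSEC-adjusted molecules for the levels alone, the levels of Ptprc cells were 216, 219.7 and 56.3 for Ccnd1, and 247, 614 and 484 for Myc. By Hlf, Fzd9 and Mki67 the ratios were 1.49, 1.45 and 0.784 for fetal Ccnd1, 1.70, 1.40 and 1.18 for adult Ccnd1, and 1.94, 2.14 and 1.78 for fetal Myc, 1.73, 1.21 and 1.32 for adult Myc. Between stages Ptprc cells had ratios of 3.90 and 1.27, and the endothelial stage ratios were 5.43 and 3.54. Endothelial-like over Ptprc cells gave ratios of 2.87, 2.37 and 1.9999 for Ccnd1, and 0.892, 0.405 and 0.127 for Myc. With a gate of 1 Ptprc molecule, the levels of Ptprc cells were 158, 204 and 54.0 for Ccnd1, and 209, 599 and 528 for Myc. The ratios by Hlf, Fzd9 and Mki67 were 1.70, 1.60 and 0.777 for fetal Ccnd1, 1.87, 1.01 and 1.38 for adult Ccnd1, and 2.19, 2.44 and 2.12 for fetal Myc, 1.74, 0.802 and 1.63 for adult Myc. The stage ratios of Ptprc cells were 3.78 and 1.13. The endothelial-like to Ptprc ratios were 4.47, 2.90 and 2.58 for Ccnd1, and 0.881, 0.301 and 0.0949 for Myc. Without the 13 most abundant targets in the denominator, the levels of Ptprc cells were 296, 431 and 209 for Ccnd1, and 425, 1222 and 1903 for Myc. By Hlf, Fzd9 and Mki67 the ratios were 1.47, 1.34 and 0.736 for fetal Ccnd1, 1.30, 1.41 and 1.01 for adult Ccnd1, and 2.01, 2.10 and 2.05 for fetal Myc, 1.33, 1.15 and 1.12 for adult Myc. Between stages Ptprc cells had ratios of 2.07 and 0.642, and the endothelial stage ratios were 3.41 and 2.69. Endothelial-like over Ptprc cells gave ratios of 4.01, 2.89 and 1.62 for Ccnd1, and 0.798, 0.311 and 0.0653 for Myc. Without the 4 cell cycle targets in the denominator, the levels of Ptprc cells were 169.8, 256 and 73.3 for Ccnd1, and 244, 724 and 669 for Myc. The ratios by Hlf, Fzd9 and Mki67 were 1.76, 1.82 and 0.903 for fetal Ccnd1, 1.87, 1.33 and 1.61 for adult Ccnd1, and 2.40, 2.84 and 2.51 for fetal Myc, 1.92, 1.09 and 1.78 for adult Myc. The stage ratios of Ptprc cells were 3.49 and 1.08, and the endothelial stage ratios were 4.86 and 3.83. The endothelial-like to Ptprc ratios were 4.04, 2.52 and 1.88 for Ccnd1, and 0.804, 0.271 and 0.0758 for Myc. Without cells holding endothelial or stromal markers, the levels of Ptprc cells were 167, 239 and 46.0 for Ccnd1, and 209.8, 556 and 506 for Myc. By Hlf, Fzd9 and Mki67 the ratios were 1.61, 1.82 and 0.72 for fetal Ccnd1, and 2.88, 3.36 and 2.35 for fetal Myc. Between stages Ptprc cells had ratios of 5.20 and 1.10. Without cells holding stromal markers, the levels of Ptprc cells were 138, 245 and 67.5 for Ccnd1, and 282, 679 and 487 for Myc. The ratios by Hlf, Fzd9 and Mki67 were 1.46, 1.56 and 0.773 for fetal Ccnd1, and 2.25, 2.58 and 2.12 for fetal Myc. The stage ratios of Ptprc cells were 3.62 and 1.39. With cells weighted equally, the levels of Ptprc cells were 191, 294 and 100.4 for Ccnd1, and 221, 625 and 823 for Myc. By Hlf, Fzd9 and Mki67 the ratios were 1.45, 1.32 and 0.605 for fetal Ccnd1, 1.49, 1.91 and 0.9503 for adult Ccnd1, and 2.06, 2.37 and 1.84 for fetal Myc, 1.36, 1.498 and 0.984 for adult Myc. Between stages Ptprc cells had ratios of 2.93 and 0.759, and the endothelial stage ratios were 4.33 and 3.79. Endothelial-like over Ptprc cells gave ratios of 3.56, 2.15 and 1.53 for Ccnd1, and 0.939, 0.267 and 0.0663 for Myc. With at least 2 molecules of the second gene, the ratios by Hlf, Fzd9 and Mki67 were 2.07, 1.87 and 0.686 for fetal Ccnd1, 1.96, 2.74 and 1.28 for adult Ccnd1, and 2.32, 2.94 and 2.11 for fetal Myc, 2.10, 2.35 and 1.46 for adult Myc. As shares at 50 molecules, the ratios by Hlf, Fzd9 and Mki67 were 1.77, 1.66 and 0.929 for fetal Ccnd1, 1.4999, 1.81 and 0.786 for adult Ccnd1, and 1.47, 1.48 and 1.42 for fetal Myc, 1.34, 1.35 and 1.17 for adult Myc. Over 4 depth strata, the ratios by Hlf, Fzd9 and Mki67 were 1.53, 1.46 and 0.827 for fetal Ccnd1, 1.41, 1.78 and 1.23 for adult Ccnd1, and 1.98, 2.22 and 1.75 for fetal Myc, 1.39, 1.32 and 1.08 for adult Myc. At a clustering resolution of 1.0, the endothelial stage ratios were 4.86 and 3.08. Endothelial-like over Ptprc cells gave ratios of 4.403, 2.80 and 1.87 for Ccnd1, and 0.874, 0.301 and 0.0942 for Myc.

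At resolution 1.0 the leading class was at 126 for adult Ccnd1 and 1298 for fetal Myc, and by molecules per cell the leading adult class for Ccnd1 was chondrocyte-like, at 10.2 per 10000. No paired analysis was possible because each group held a single library. The E18.5 EC ratios by Hlf and Fzd9 rest on 44 and 22 cells with these genes.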

Other observations

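Of 66 cells of the E18.5 EC library with exactly 1 Ptprc molecule, which belong to no comparison above, Ccnd1 was at 398 per 10000, between the 598 of cells without Ptprc and the 146 of Ptprc cells. In the Adult BM library, cells with 1 Ptprc molecule had 25.0 Ccnd1 and 349 Myc molecules per 10000. In the E18.5 BM library, the pair of small clusters led by Srgn with Acp5 or Postn (84 and 82 cells) held Ptprc in 1.19% and 2.44% of cells. They had the highest Myc levels of all clusters, at 1813 and 1689 per 10000, with Myc in 98.7% and 94.2% of cells and Mki67 in 92.3% and 87.0% at 50 molecules. Their Ccnd1 was at 145 and 132. These clusters stayed unnamed.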
